A study of Rattus norvegicus with 6 samples.

Results

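The genes of platelet-derived growth factor (PDGF) and its receptors were followed in sciatic nerve of 6 female wild-type rats, 3 in each of 2 randomly assigned groups. The genes were taken as the 6 rows of the deposited gene table whose symbol was Pdgfa, Pdgfb, Pdgfc, Pdgfd, Pdgfra or Pdgfrb, 4 ligands and 2 receptors among 21028 gene models. In the PCL group the nerve had been repaired with a PCL conduit and no ultrasound had been given. In the PLLARS_US group a PLLARS conduit had been combined with ultrasound stimulation, and the series title describes the device as biodegradable, piezoelectric and based on Rochelle salt. Conduit and ultrasound differed together, so their parts in any difference cannot be told apart. The sources used here do not give age or strain, the time from repair to collection or the piece of nerve taken. With 6 rats and 6 libraries, each library was taken as 1 rat. Expression was deposited as FPKM, the number of fragments scaled to gene model length and library depth.

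PDGF chains are secreted as disulphide-linked dimers. They bring receptor tyrosine kinases together in pairs. The paired receptors recruit phosphoinositide 3-kinase, phospholipase C gamma, STAT factors, and the adaptor Grb2 with Sos, which activates Ras. The alpha receptor binds the A, B and C chains and the beta receptor binds the B and D chains. In peripheral nerve the alpha receptor is best known as a fibroblast receptor and the beta receptor as a receptor of pericytes, which B chain from endothelium draws to new vessels. Macrophages and platelets are further sources of B chain.

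The stretches just upstream of the RefSeq gene starts are shown for 3 of the genes, because Pdgfb followed another pattern over the libraries than Pdgfa and Pdgfra. RefSeq sequences of the rat assembly GRCr8 were held for 5 of the 6 genes. Each is 250 bases, written 5′ to 3′ on the strand of the gene, and ends at the base before the start. Capitals mark a GC box, searched as GGGCGG on both strands (CCGCCC on the other).
Pdgfb, chr7:113438344-113438593, minus strand: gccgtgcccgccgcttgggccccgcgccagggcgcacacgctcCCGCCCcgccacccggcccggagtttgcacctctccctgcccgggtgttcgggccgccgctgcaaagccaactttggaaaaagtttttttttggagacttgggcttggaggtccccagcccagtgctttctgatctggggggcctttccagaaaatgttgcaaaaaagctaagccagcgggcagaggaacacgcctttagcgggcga
Pdgfa, chr12:20759116-20759365, plus strand: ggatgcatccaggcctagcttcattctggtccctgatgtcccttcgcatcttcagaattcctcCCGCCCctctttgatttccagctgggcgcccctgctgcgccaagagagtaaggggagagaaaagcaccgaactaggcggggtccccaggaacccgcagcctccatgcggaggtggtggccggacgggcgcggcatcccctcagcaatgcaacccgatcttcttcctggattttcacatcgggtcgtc
Pdgfra, chr14:33408517-33408766, minus strand: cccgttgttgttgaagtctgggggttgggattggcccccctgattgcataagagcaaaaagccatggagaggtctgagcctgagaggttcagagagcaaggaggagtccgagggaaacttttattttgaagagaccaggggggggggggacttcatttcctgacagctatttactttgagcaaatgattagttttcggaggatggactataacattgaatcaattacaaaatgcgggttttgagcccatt
Pdgfb held 1 GC box beginning 207 bases before the start, Pdgfa held 1 beginning 187 bases before it, and Pdgfra held 0. Over all 33469 stretches of this length, 30.5% held a GC box. The bases G and C made up 63.6% of the Pdgfb stretch, 60.8% of that of Pdgfa and 47.2% of that of Pdgfra. The TATA motif TATAAA, searched on both strands, was in none of these 3 stretches and in 12.9% of all. Of the stretches not shown, that of Pdgfd held 1 GC box, beginning 114 bases before the start, and was 61.6% G and C. That of Pdgfc held 0 and was 56.0% G and C. These matches describe letters, not binding, and their relation to the pattern over the libraries was not tested.

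All 6 genes were expressed, and all 6 had a mean FPKM over the libraries of at least 1, the level required for testing. Averaged over the 6 libraries, Pdgfra stood highest at 46.7 ± 20.6 FPKM (SD, n = 6), followed by Pdgfrb at 38.4 ± 10.9, Pdgfa at 33.8 ± 8.54 and Pdgfb at 30.2 ± 8.23. Pdgfd, at 7.76 ± 3.51 FPKM, and Pdgfc, at 6.27 ± 2.61, were the low ligands. The order held beyond the spread at 1 step, between Pdgfb and Pdgfd, where the lowest Pdgfb library (20.5 FPKM) lay above the highest Pdgfd library (11.85). Neighbours elsewhere in the order overlapped: Pdgfra was above Pdgfrb in 3 of 6 libraries, Pdgfrb above Pdgfa in 4, Pdgfa above Pdgfb in 4 and Pdgfd above Pdgfc in 4. Among the 13720 genes tested, 86.9% had a lower mean FPKM than Pdgfra and 32.4% a lower one than Pdgfc.

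**Figure D1:**
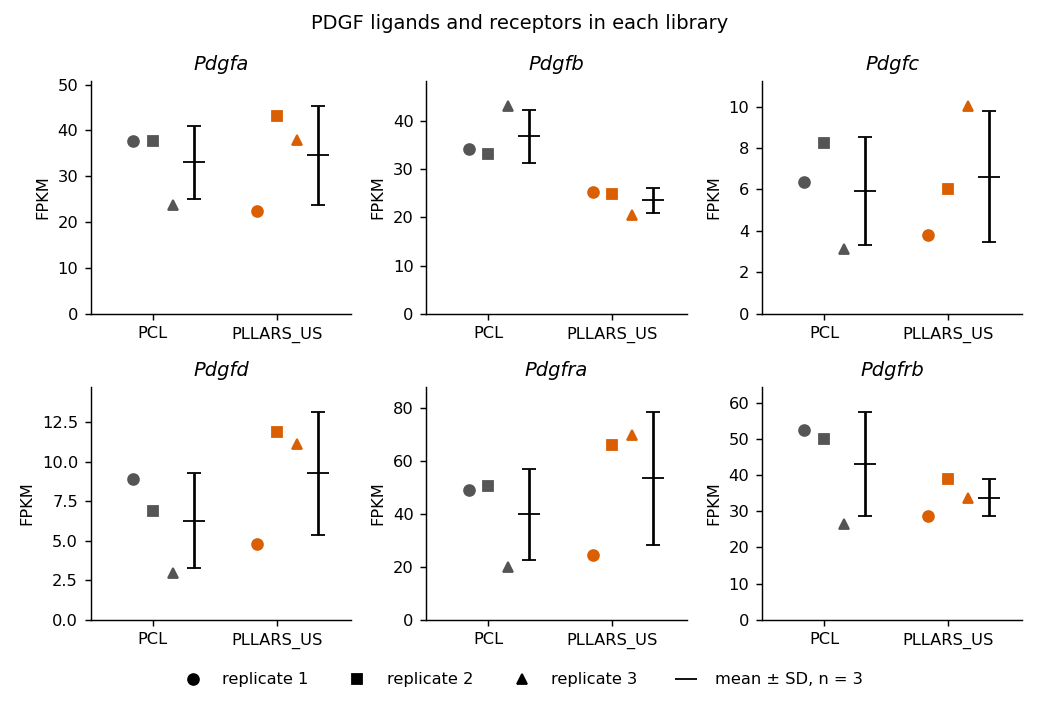
FPKM of each PDGF ligand and receptor in the 6 libraries. Symbols are replicates and the bar is the mean with the SD of 3. The groups are apart for Pdgfb, where the PCL libraries sit at 33.2 to 43.1 and the PLLARS_US libraries at 20.5 to 25.3, and they overlap for the other 5 genes.

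The 6 libraries held about 15320000 to 16680000 fragments each, estimated from the steps between low FPKM values of small single-exon RNA models. The nerve marker Sox10, the Schwann lineage transcription factor, was present in every library, at 31.6 to 90.7 FPKM. Tissue makeup varied inside both groups. The 8 of 10 skeletal muscle markers with a row in the table summed to 93.6, 1132 and 8399 FPKM in PCL replicates 1 to 3 and to 13760, 21.7 and 2667 FPKM in PLLARS_US replicates 1 to 3, so PCL replicate 3 and PLLARS_US replicate 1 stood apart. Values of the PDGF genes, the receptor ratio and the pathway lists are therefore also given without those 2 libraries. In bulk tissue, fewer cells of a type and less RNA per cell cannot be told apart.

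The comparison of PLLARS_US with PCL asks whether this growth factor system was expressed differently with the stimulated device than with the PCL conduit. Pdgfb, the B chain, was the member on which the groups did not overlap. Its FPKM was 34.1, 33.2 and 43.1 in PCL replicates 1 to 3 and 25.3, 24.8 and 20.5 in PLLARS_US replicates 1 to 3. Every PCL library thus lay above every PLLARS_US library, and the highest value belonged to PCL replicate 3. The means were 36.8 ± 5.47 against 23.6 ± 2.62 FPKM (SD, n = 3 each), a ratio of 0.639. The log2 difference, here and below PLLARS_US minus PCL on the scale of log2(FPKM + 1), was -0.62 (SE 0.16, 95% interval -0.998 to -0.242). In the limma fit across all genes its unadjusted p was 0.00684, at position 186 of 13720, and its Benjamini-Hochberg adjusted p was 0.496, so the difference did not pass the threshold of 0.05. No gene passed: 0 of 13720 genes (0%) were called by limma, with 960 (7%) at an unadjusted p under 0.05, 1.99% of genes being higher and 5.01% lower; Pdgfb was the 1 PDGF gene among them. Every PLLARS_US library lay below every PCL library for 10% of tested genes and above for 4.33%, 14.4% without overlap in all, against 1 of the 6 PDGF genes. With limma array weights, which give noisier libraries less weight, 118 genes were called and 0 of them were PDGF genes. This fit weighted PCL replicates 1 to 3 at 1.14, 5.61 and 0.295, so its PCL side rested mostly on 1 library. In that fit Pdgfb had a log2 difference of -0.55 and an adjusted p of 0.0741, the lowest of a range over 20 alternatives that reached 1. Its log2 difference ran from -0.69 to -0.50 over those alternatives.

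In the deposited table Pdgfb (ENSRNOG00000017197) was placed on chromosome 7, minus strand, between 121214628 and 121232741. Which genome build that table follows is unsettled, since the only build named is human, so these positions are not on the same coordinates as the RefSeq stretches above. Pdgfa (ENSRNOG00000001312) was placed on chromosome 12, plus strand, between 17734133 and 17755285, and Pdgfra (ENSRNOG00000002244) on chromosome 14, minus strand, between 35527927 and 35581031. Pdgfrb (ENSRNOG00000018461) was placed on chromosome 18, plus strand, between 56364620 and 56406381, Pdgfc (ENSRNOG00000010695) on chromosome 2, plus strand, between 179952227 and 180128283, and Pdgfd (ENSRNOG00000029148) on chromosome 8, plus strand, between 4440876 and 4669014. Values are per gene model, so transcripts of a gene, such as the long and short forms of the A chain, are summed.

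Pdgfa, the A chain, a ligand of the alpha receptor, was nearly level between the groups. Its FPKM was 37.6, 37.8 and 23.8 in PCL replicates 1 to 3 and 22.5, 43.2 and 38.0 in PLLARS_US replicates 1 to 3. The low libraries were PCL replicate 3 and PLLARS_US replicate 1, and the groups overlapped. The means of 33.1 ± 8.01 and 34.6 ± 10.8 FPKM gave a log2 difference of 0.04 (SE 0.30, 95% interval -0.69 to 0.77, limma adjusted p 0.996), an interval that includes the size of the Pdgfb difference in both directions.

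Pdgfc and Pdgfd, whose chains are secreted with a CUB domain that must be cut off before they bind, were low and variable. Pdgfc read 6.37, 8.26 and 3.11 FPKM in PCL replicates 1 to 3 and 3.82, 6.01 and 10.03 in PLLARS_US replicates 1 to 3. Pdgfd read 8.91, 6.91 and 2.99 FPKM in PCL replicates 1 to 3 and 4.80, 11.85 and 11.12 in PLLARS_US replicates 1 to 3. For both ligands PCL replicate 3 and PLLARS_US replicate 1 were the lowest libraries of their groups, and the groups overlapped. The log2 differences were 0.14 (SE 0.41, 95% interval -0.87 to 1.14, limma adjusted p 0.983) for Pdgfc and 0.51 (SE 0.45, 95% interval -0.59 to 1.61, limma adjusted p 0.899) for Pdgfd.

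Pdgfra, the alpha receptor, varied more between libraries than the beta receptor, with a highest value 3.47 times its lowest. Its FPKM was 49.2, 50.6 and 20.1 in PCL replicates 1 to 3 and 24.6, 65.97 and 69.8 in PLLARS_US replicates 1 to 3. PLLARS_US replicates 2 and 3 were above all PCL libraries, while PLLARS_US replicate 1 was below PCL replicates 1 and 2. The means of 40.0 ± 17.2 and 53.5 ± 25.1 FPKM gave a log2 difference of 0.38 (SE 0.52, 95% interval -0.89 to 1.66, limma adjusted p 0.950). Leaving out 1 library moved this difference between -0.04, without PCL replicate 3, and 0.86, without PLLARS_US replicate 1.

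Pdgfrb, the beta receptor, had its highest levels in 2 PCL libraries. Its FPKM was 52.5, 50.04 and 26.5 in PCL replicates 1 to 3 and 28.8, 39.0 and 33.6 in PLLARS_US replicates 1 to 3. PCL replicate 3 was the lowest library of all, so the groups overlapped. The means of 43.0 ± 14.4 and 33.8 ± 5.10 FPKM gave a log2 difference of -0.29 (SE 0.29, 95% interval -0.99 to 0.41, limma adjusted p 0.913). Without PCL replicate 3 the difference was -0.60, and without PCL replicate 1 it was -0.12. Of the 6 genes, 4 had a log2 difference above 0 and 2 below, where 43% of all tested genes were above 0 and the median over all of them was -0.04.

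**Figure D2:**
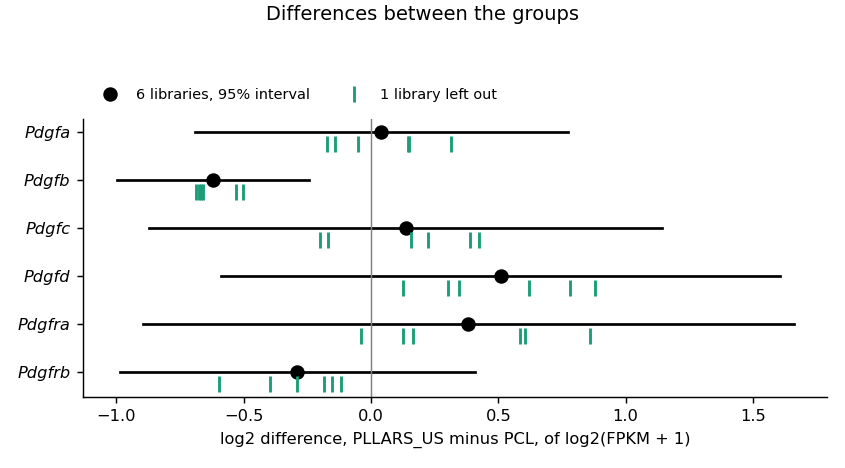
Log2 difference between the groups for each gene, PLLARS_US minus PCL on log2(FPKM + 1). Points and lines are the limma value and its 95% interval from 6 libraries, and green ticks are the values with 1 library left out. The interval of Pdgfb runs from -0.998 to -0.242 and the other 5 intervals include 0; ticks of Pdgfa, Pdgfc and Pdgfra fall on both sides of 0.

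The genes other than Pdgfb shared a pattern over the libraries in which Pdgfb differed. Pdgfa, Pdgfc, Pdgfd, Pdgfra and Pdgfrb each had their 2 lowest values in PCL replicate 3 and PLLARS_US replicate 1, whereas Pdgfb had its highest value in PCL replicate 3 and an intermediate one in PLLARS_US replicate 1. The share of all tested genes with their 2 lowest values there was not worked out. Over all tested genes, deviations of these 2 libraries from their group means had a correlation of 0.63, so the pattern is not particular to PDGF genes. Over the 6 libraries, the log2 levels of Pdgfra had a Pearson r of 0.967 with Pdgfd, 0.954 with Pdgfa and 0.904 with Pdgfc, and of -0.593 with Pdgfb. The r of Pdgfrb with these 5 genes ran from 0.065, with Pdgfb, to 0.746, with Pdgfa. These are descriptions over 6 points that share depth and tissue makeup, and they carry no p.

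**Figure D3:**
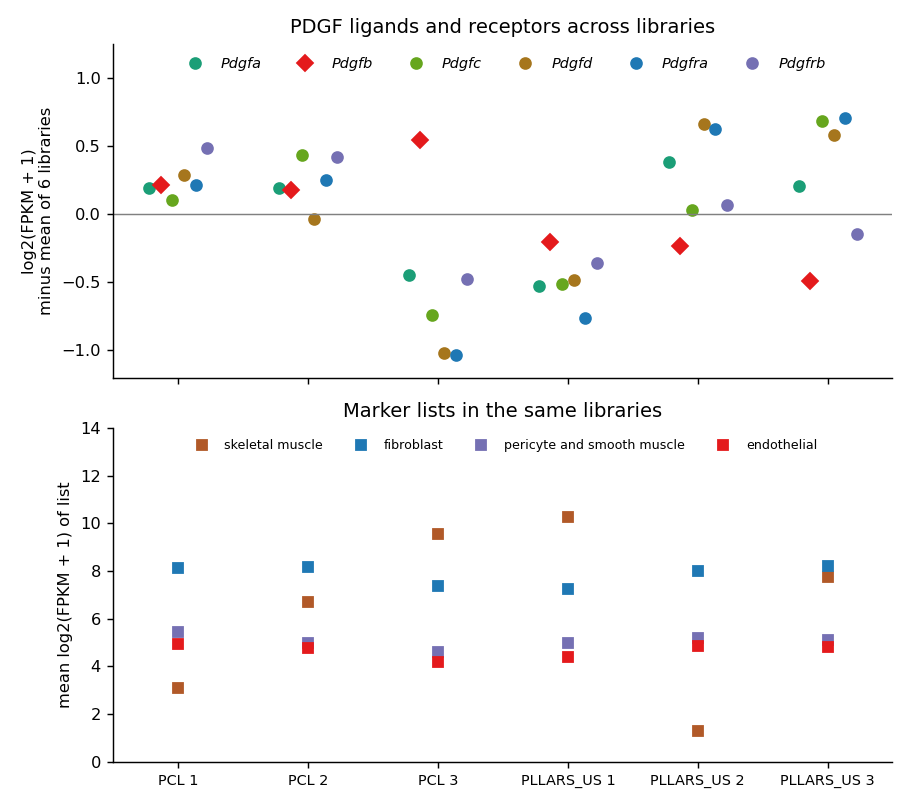
Upper panel, log2(FPKM + 1) of each gene minus its mean over the 6 libraries; lower panel, mean log2(FPKM + 1) of 4 marker lists in the same libraries. In PCL replicate 3 and PLLARS_US replicate 1 the muscle list is highest, at 9.54 and 10.3, the fibroblast list is lowest, at 7.39 and 7.26, and every PDGF gene but Pdgfb is at its lowest values.

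Levels of the fibroblast and endothelial lists moved with that pattern, though not every marker did. Pi16 of the fibroblast list and Tie1 of the endothelial list were highest in PCL replicate 3, at 99.5 and 54.6 FPKM. The endothelial markers Kdr and Vwf were lowest in PCL replicate 3 but not next lowest in PLLARS_US replicate 1. The remaining markers of both lists had their 2 lowest values in PCL replicate 3 and PLLARS_US replicate 1. The fibroblast list (9 of 10 markers with a row, none at 0) summed to 3800 to 7397 FPKM over the PCL libraries and to 4497 to 6952 over the PLLARS_US libraries, with its 2 lowest sums in PCL replicate 3 and PLLARS_US replicate 1. The endothelial list (8 of 10 with a row, none at 0) summed to 168 to 266 FPKM with PCL and 168 to 236 with PLLARS_US, lowest in the same libraries. The sums of the pericyte and smooth muscle list (11 of 11, none at 0) followed it only in part. They were 1112, 756 and 581 FPKM in PCL replicates 1 to 3 and 935, 795 and 738 in PLLARS_US replicates 1 to 3. PCL replicate 3 had the lowest sum, but PLLARS_US replicate 1 had the highest of its group. Des, the desmin gene, which skeletal muscle also expresses, gave 475 FPKM of the sum in PLLARS_US replicate 1 and 52.1 to 240 in the others. On the list mean of log2(FPKM + 1), PCL replicate 3 (4.61) and PLLARS_US replicate 1 (4.99) were each the lowest of their group.

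Set against the pericyte and smooth muscle list in the same library, Pdgfrb was lower in every PLLARS_US library than in any PCL library. The difference of log2(Pdgfrb FPKM + 1) from the list mean was 0.32, 0.72 and 0.18 in PCL replicates 1 to 3 and -0.092, 0.15 and -0.012 in PLLARS_US replicates 1 to 3. The gap between PCL replicate 3 and PLLARS_US replicate 2 was small beside the spread inside either group. Of all tested genes, taken without a list, 14.4% did not overlap, and no such share was worked out for differences from a list. The list mean includes Des, which was highest in PCL replicate 3 and PLLARS_US replicate 1. The group means were 0.41 ± 0.28 and 0.015 ± 0.12 (SD, n = 3 each). No fit with this list as a covariate was made, and its part in the Pdgfrb values was not tested.

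Set against the fibroblast list in the same library, Pdgfra was higher in the PLLARS_US libraries by 0.46 on average. The difference of log2(Pdgfra FPKM + 1) from the list mean was -2.49, -2.49 and -2.98 in PCL replicates 1 to 3 and -2.58, -1.95 and -2.05 in PLLARS_US replicates 1 to 3, with PLLARS_US replicate 1 inside the PCL range. With the fibroblast list mean as a covariate in limma, the log2 difference of Pdgfra was 0.51 (SE 0.10, adjusted p 0.125) and that of Pdgfd, the D chain, was 0.61 (SE 0.16, adjusted p 0.170). In the same fit Pdgfb had -0.65 (SE 0.10, adjusted p 0.106). None of the 6 genes passed, and that fit called 1 gene, Ccl11, an eosinophil chemokine (named after its values were seen).

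Without the 2 libraries richest in muscle RNA, 5 of the 6 genes did not overlap between the groups, and neither did 49.3% of all tested genes. Each group then held 2 libraries, and non-overlap is more frequent with fewer libraries. Pdgfra, Pdgfd and Pdgfa were above and Pdgfb and Pdgfrb below in the PLLARS_US libraries, with log2 differences of 0.44 (SE 0.08), 0.49 (SE 0.15), 0.10 (SE 0.10), -0.56 (SE 0.12) and -0.49 (SE 0.11). The limma adjusted p of these 5 genes ran from 0.260 to 0.673. Pdgfc overlapped, with a log2 difference of 0.090 (SE 0.27, limma adjusted p 0.900). Without PLLARS_US replicate 1 alone, 4 genes did not overlap (34.5% of all genes), and without PCL replicate 3 alone, 2 did not (27.1% of all genes). Without 1 of the other libraries the share of all genes was 18.8% to 22.7%. The share thus also differed with the library left out.

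The balance between the receptors leaned toward the alpha receptor in 2 PLLARS_US libraries. The ratio of Pdgfra to Pdgfrb FPKM was 0.936, 1.01 and 0.759 in PCL replicates 1 to 3 and 0.854, 1.69 and 2.08 in PLLARS_US replicates 1 to 3. PLLARS_US replicate 1 lay inside the PCL range, so the groups overlapped. On the log2 scale the group means were -0.16 ± 0.21 and 0.53 ± 0.67 (SD, n = 3 each), a difference of 0.69 that ran from 0.42 to 1.07 with 1 library left out and was 0.95 without the muscle-rich pair. Because both values come from 1 library, scaling of the library cancels. No test was run on the ratio, and the exact permutation test of 3 against 3 could not give a p below 0.1.

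**Figure D4:**
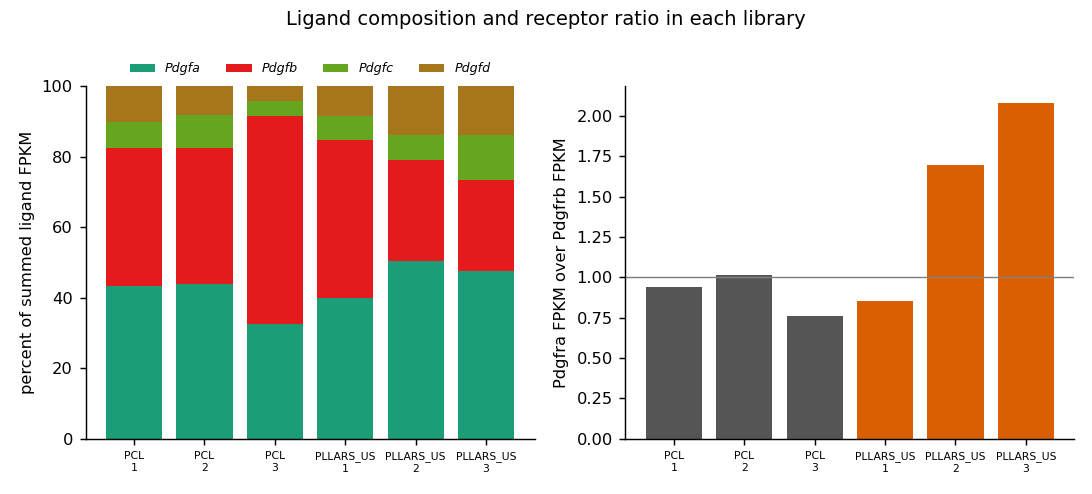
Left, share of each ligand in the summed ligand FPKM of a library; right, Pdgfra FPKM divided by Pdgfrb FPKM, with a line at 1. Pdgfb takes 38.6% to 59.0% of ligand FPKM in the PCL libraries and 25.8% to 44.9% in the PLLARS_US libraries, and the receptor ratio reaches 1.69 and 2.08 in PLLARS_US replicates 2 and 3.

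The ligand mixture was made mainly of A and B chain. Summed ligand FPKM was 87.0, 86.2 and 73.1 in PCL replicates 1 to 3 and 56.4, 85.8 and 79.7 in PLLARS_US replicates 1 to 3, with PLLARS_US replicate 1 lowest. Pdgfb made up 39.2%, 38.6% and 59.0% of it in PCL replicates 1 to 3 and 44.9%, 28.9% and 25.8% in PLLARS_US replicates 1 to 3. Pdgfa made up 32.6% to 43.8% in the PCL group and 39.8% to 50.3% in the PLLARS_US group. In PCL replicate 3 Pdgfb exceeded its receptor Pdgfrb, with a ratio of 1.63, while the other 5 libraries had ratios of 0.612 to 0.881.

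Possible sources of Pdgfb were read beside it. Of the macrophage list, 10 of 10 markers had a row and none was at 0, 7 were higher and 3 lower with PLLARS_US, none passed, and their sum was 1551 to 1883 FPKM with PCL and 1550 to 2131 with PLLARS_US. Of the platelet list, 7 of 9 had a row, and Gp6, Gp9 and Ppbp were at 0 in at least 1 library. All 3 platelet markers that could be tested, Pf4, Treml1 and Itga2b, had a log2 difference below 0, the direction of Pdgfb, and none passed. Of all tested genes only 43% were above 0, so this direction was the more frequent one. Treml1, a receptor of platelet granules, read 2.92, 1.44 and 1.51 FPKM in PCL replicates 1 to 3 and 0.421, 0.284 and 0.514 in PLLARS_US replicates 1 to 3, without overlap (log2 difference -1.04, limma unadjusted p 0.00840, adjusted p 0.512). Itga2b, an integrin chain of platelets, read 0.505 to 3.26 FPKM over the 6 libraries, and its groups overlapped. The platelet sum of 211 to 596 FPKM with PCL and 138 to 420 with PLLARS_US was nearly all Pf4, while Gp1ba, Gp6 and Gp9, which belong to platelet surface receptors, were at or below 0.383 FPKM in every library. Pf4 itself was highest in PCL replicate 3, at 592 FPKM, as was Pdgfb. It was next highest in PLLARS_US replicate 1, at 417 FPKM, where Pdgfb read 25.3, below every PCL library. Relative to the endothelial list mean, log2(Pdgfb FPKM + 1) was 0.20, 0.35 and 1.295 in PCL replicates 1 to 3 and 0.35, -0.17 and -0.39 in PLLARS_US replicates 1 to 3, so the groups overlapped. The part of macrophages or platelets in the Pdgfb values was not tested.

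The genes most like each member over the 6 libraries were sought among 10011 named gene models with a mean FPKM of at least 5. Nearest to Pdgfb were Pdcd6, a calcium-binding protein gene, with a Pearson r of 0.997, and Timm9, a chaperone of mitochondrial import, with 0.993. Nearest to Pdgfra were Cers4, a ceramide synthase, with 0.9994, and, both with 0.9985, Thbs4, a thrombospondin, and Ptprn, a protein of secretory granules. Nearest to Pdgfrb were Hhipl1 (0.999), the mitochondrial ribosome gene Mrpl28 (0.993) and the nuclear pore gene Nup188 (0.992). Pdgfa was nearest to Klhl34, the transcription factor gene Tcf4 and the centriole gene Cep164, each with an r of at least 0.999. Pdgfd was nearest to Gimap4, Rab3b and the integrin chain gene Itgb8 (0.996 to 0.997), and Pdgfc to the gene model AABR07006458.1, Wfdc1 and Rnf125 (0.991 to 0.996). With 6 points and this many candidates these are descriptions without a p.

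The rest of the pathway was read from 6 lists holding 95 genes, of which 94 had a row and were tested. None passed in either direction with limma. At an unadjusted p under 0.05 there were 3 higher and 7 lower, 10.6% of the 94 against 7% of all tested genes, and 15.96% of the 94 did not overlap against 14.4% of all. The median log2 difference of the 94 genes was -0.07, where that of all tested genes was -0.04. The list medians below moved with single libraries, and without the muscle-rich pair they were -0.18 for ligand processing, -0.039 for receptor-proximal signalling, 0.0023 for the Ras-MAPK and Akt cascade, -0.15 for negative regulators, -0.31 for early response genes and 0.032 for the class III list.

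Proteins that process or bind the ligands had 6 members higher and 8 lower and a median of -0.03, which was -0.33 without PCL replicate 3 and 0.22 without PCL replicate 1. Furin, a convertase that trims the A and B chain precursors, read 61.4, 73.4 and 65.3 FPKM in PCL replicates 1 to 3 and 42.1, 59.7 and 47.6 in PLLARS_US replicates 1 to 3. Its groups did not overlap, and its log2 difference was -0.43 (SE 0.17, limma adjusted p 0.692). Pcsk7, another convertase, had 17.8 ± 0.359 FPKM with PCL and 13.6 ± 1.49 with PLLARS_US, also without overlap (limma adjusted p 0.636). Sparc, a matrix protein that binds B chain, was the most abundant of the list, at 2919 ± 1068 against 2728 ± 599 FPKM.

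Adaptors, kinases and STAT factors that dock at the receptors had 8 members higher and 17 lower, a median of -0.06 (-0.17 without PCL replicate 3 and 0.039 without PLLARS_US replicate 1), and 2 members in each direction at an unadjusted p under 0.05. Stat5a, a STAT factor of growth factor and cytokine receptors, had 13.9 ± 3.03 FPKM with PCL against 9.10 ± 0.450 with PLLARS_US (limma adjusted p 0.586). Jak1, the most abundant of the list, had 72.9 ± 9.20 against 76.4 ± 6.23 FPKM.

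The Ras-MAPK and Akt cascade had 8 members on each side and a median of -0.02. Hras, 1 of the Ras genes, had a mean of 32.3 ± 3.29 FPKM with PCL and 25.1 ± 2.59 with PLLARS_US (log2 difference -0.35, SE 0.14, limma adjusted p 0.689). Braf, a kinase below Ras, had 3.93 ± 0.605 against 4.92 ± 0.645 FPKM, and Akt1, the most abundant of the list, 131 ± 10.9 against 114 ± 24.2. Negative regulators had 6 members higher and 10 lower and a median of -0.21, which lay between -0.15 and -0.063 with 1 library left out. Socs3, an inhibitor of Jak kinases, read 102, 84.1 and 77.8 FPKM in PCL replicates 1 to 3 and 65.4, 58.7 and 65.2 in PLLARS_US replicates 1 to 3, without overlap (limma adjusted p 0.579). Dusp4, a phosphatase of MAP kinases, had 6.78 ± 1.67 against 3.89 ± 0.670 FPKM (limma adjusted p 0.597), and the related Dusp1 had 131 ± 48.5 against 112 ± 58.0.

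Early response genes, which growth factors switch on within minutes in cultured cells, had 5 members higher and 11 lower and a median of -0.16, which was -0.36 without PCL replicate 3 and 0.0060 without PCL replicate 2. None had an unadjusted p under 0.05 in limma. Ier2, an immediate early gene, had 52.6 ± 4.30 FPKM with PCL and 42.7 ± 4.47 with PLLARS_US. Srf, the serum response factor that binds their promoters, had 19.6 ± 2.32 against 16.03 ± 0.656 FPKM, and Jun 128 ± 51.2 against 181 ± 48.0. The related class III receptor kinases and their ligands had 4 members higher and 3 lower and a median of 0.08. Csf1, the macrophage growth factor, had 25.5, 29.5 and 73.2 FPKM in PCL replicates 1 to 3 and 29.5, 22.8 and 20.7 in PLLARS_US replicates 1 to 3, and its receptor Csf1r had 149 ± 42.3 against 115.5 ± 6.06. Both were highest in PCL replicate 3, as Pdgfb was. Kit, the stem cell factor receptor, had 7.74 ± 2.00 against 5.39 ± 0.283 FPKM (limma adjusted p 0.751); the adjusted p of Csf1 and Csf1r was 0.840 and 0.847.

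**Figure D5:**
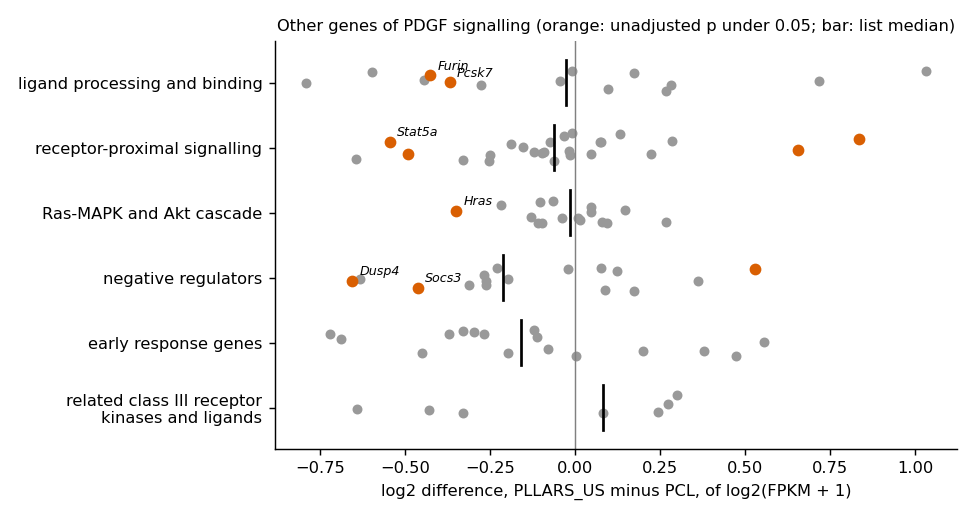
Log2 difference, PLLARS_US minus PCL, of 94 other genes of PDGF signalling in 6 lists. Each point is a gene, orange marks an unadjusted limma p under 0.05 (10 genes, none past the adjusted threshold), names mark some of those below 0, and the black bar is the list median, from -0.21 to 0.08.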

How the data were processed

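RNA-seq of sciatic nerve was deposited for 6 libraries, 3 per group, and the sample titles gave group and replicate number. Poly(A) RNA was made into NEB Next Ultra libraries, sequenced from both ends, per the labels' protocols; strand is not stated. The authors deposited FPKM per gene model, 1 column per library, in a table of 21028 gene models, and a second sheet with equal values in 21028 rows, which was only compared with the first. DESeq 1.28.0, StringTie 1.3.3b, HISAT2 2.1.0 and FastQC 0.11.5 are listed, without roles, in the submitters' processing notes, which name the human build hg38 although the identifiers are rat.

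The 13720 genes whose FPKM averaged 1 or more over the libraries entered a two-sided limma test (3.58.1, R 4.3.3) of log2(FPKM + 1) on group alone, moderated with a trend in the mean, and p-values were adjusted over all of them (Benjamini-Hochberg, 0.05). The scale understates changes of low genes. The fit was tested on simulated data. Depth was estimated where FPKM times length gave whole multiples of 1 step (446 small models); for other genes the fragments behind a value are unknown. From each pathway list the 2 genes of smallest p and the most abundant were named, and for each member the 3 genes of highest r; the results of a few genes so named are not reported here. The members and lists were chosen with earlier results of these data known. Alternatives covered pseudocount, filter, scaling, variance model, replicate block, tissue covariates and left-out libraries.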

Additional observations from a re-analysis of the deposited data

How the results depend on the processing

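Pdgfb was lower and Pdgfd higher in the PLLARS_US libraries in all 20 alternatives, and Pdgfrb was lower in all 20; with 1 library left out Pdgfd ran from 0.13 (without PCL replicate 3) to 0.88 (without PLLARS_US replicate 1) and Pdgfrb from -0.60 to -0.12; none of the 6 PDGF genes passed in any. With 1 library left out in turn, the log2 difference ran from -0.17 to 0.32 for Pdgfa (below 0 without PCL replicate 3 or PLLARS_US replicate 2 or 3), from -0.20 to 0.43 for Pdgfc (below 0 without PCL replicate 3 or PLLARS_US replicate 3) and from -0.040 to 0.86 for Pdgfra (below 0 without PCL replicate 3), and with array weights it was -0.022 for Pdgfc. The number of genes called was 118 with array weights, 4 with the muscle level as a covariate (Mx1, Mx2, Oas1a and AABR07021804.1), 1 with the fibroblast level as a covariate (Ccl11) and 0 to 3 with 1 library left out (Mx1, Ifit3 and Isg15 without PLLARS_US replicate 2), all named after their values were seen. PDGF genes without overlap numbered 5 without the 2 muscle-rich libraries and 1 to 4 with 1 library left out; fewer libraries make non-overlap more frequent in all genes. List medians were 0.044, 0.016 and -0.072 for the Ras-MAPK and Akt cascade (median-ratio scaling, quantile normalization, array weights; -0.045 to 0.013 with 1 library left out), -0.33 and 0.18 for the class III receptor list (mean FPKM of at least 5, where fewer genes were tested, and quantile normalization; -0.084 to 0.10 with 1 library left out), -0.37 for early response genes (array weights; -0.36 to 0.0060), -0.33 to 0.22 for ligand processing and -0.17 to 0.039 for receptor-proximal signalling with 1 library left out, and -0.15 to -0.063 for negative regulators with 1 library left out. Single genes that changed sign were Sparc (0.018 with median-ratio scaling, 0.028 with the fibroblast covariate, -0.39 to 0.17 with 1 library left out), Jak1 (-0.036 to 0.13) and Dusp1 (-0.66 to 0.011). Apart from the left-out libraries and the stricter filter, the cause was not tested. Genes at an unadjusted p under 0.05 numbered 960, against 2827 with array weights, 2432 with the fibroblast covariate, 1871 without the muscle-rich libraries and 571 to 1252 with 1 library left out (571 without PCL replicate 2 and 615 without PLLARS_US replicate 3). The sample titles do not say whether same-numbered libraries were paired. Deviations of same-numbered libraries from their group means had correlations of -0.50, 0.15 and -0.32. These cannot settle it, because tissue makeup enters them: the muscle-rich PCL replicate 3 and PLLARS_US replicate 1 had 0.63. With a replicate block 0 genes passed, 543 had an unadjusted p under 0.05 and the adjusted p of Pdgfb was 1. With 3 libraries per group, the 95% intervals of the PDGF genes other than Pdgfb spanned at least 1.39 on the log2 scale.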

Other observations

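Markers outside the comparisons varied over the libraries in ways close to the PDGF genes. Ngfr, the low-affinity neurotrophin receptor of repair Schwann cells, read 282, 227 and 21.3 FPKM in PCL replicates 1 to 3 and 53.1, 396 and 373 in PLLARS_US replicates 1 to 3. Erbb3, the neuregulin receptor of Schwann cells, read 67.1, 61.7 and 24.9 and then 28.2, 100 and 91.9 FPKM in the same order. Both had their 2 lowest values in the libraries where Pdgfa, Pdgfc, Pdgfd, Pdgfra and Pdgfrb had theirs. Cd68, a lysosomal protein of macrophages, had its 2 highest values there, at 529 FPKM in PCL replicate 3 and 464 in PLLARS_US replicate 1, against 107 to 228 in the other libraries. Ptprc, of the same macrophage list, also had its 2 highest values there, at 107 and 63.6 FPKM. Csf1r was highest in PCL replicate 3, at 198 FPKM, but not raised in PLLARS_US replicate 1, at 116. Some markers of the list went the other way: Adgre1, Cd163, C1qb and C1qc each had their lowest value in PCL replicate 3, at 23.7, 9.49, 259 and 289 FPKM. Adgre1, at 23.7 to 34.4 with PCL and 36.3 to 43.97 with PLLARS_US, and Aif1, at 31.6 to 43.6 and 47.5 to 60.1, did not overlap and did not pass. Among endothelial markers, Kdr, a receptor of vascular endothelial growth factor, read 4.87 to 9.05 FPKM with PCL and 9.97 to 13.2 with PLLARS_US, while Tie1, another endothelial receptor kinase, read 44.6 to 54.6 and 27.4 to 35.6. Neither passed in limma (adjusted p 0.702 and 0.430), and all of these genes were named after their values were seen.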
